A study of Arabidopsis thaliana with 6 samples.

Results

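The plasma membrane intrinsic proteins (PIPs) are the aquaporins of the plant cell's outer membrane. From the 28775 genes in the count files 10 were chosen by identifier: 5 of the PIP1 subfamily and 5 of the PIP2 subfamily, out of 13 PIP genes listed for Arabidopsis thaliana. All 10 had enough reads to be tested. Shoots (the aerial parts) of 2-week-old seedlings were sequenced as poly(A) RNA, in 3 libraries of the wild-type accession Col-0 and 3 of myc2, a mutant of the same accession in the transcription factor gene MYC2. All plants were kept at 22 °C in a 16 h light and 8 h dark cycle, and no further treatment is named. Which myc2 allele was used is not stated, and nothing in the labels says whether the replicates were separate harvests, so p-values measure only the spread between these libraries. MYC2 is a basic helix-loop-helix factor of jasmonate signalling, and the comparison asks which transcripts differ where it is mutated.

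Aquaporins are tetramers in which each subunit forms its own pore, and asparagine-proline-alanine (NPA) motifs meet in the middle of that pore. Plants have several families: the PIPs, the tonoplast intrinsic proteins (TIPs) of the vacuole membrane, the nodulin 26-like proteins (NIPs) and the small basic proteins (SIPs) of the endoplasmic reticulum. PIP2 proteins move water strongly when made alone, whereas PIP1 proteins often need a PIP2 partner to reach the plasma membrane, and several PIPs also pass carbon dioxide or hydrogen peroxide. In leaves they set much of the water permeability of mesophyll and vein cells.

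The read totals ran from 21165967 to 30604815 per library. MYC2 itself had 4808, 4085 and 5087 reads in Col-0 replicates 1 to 3 and 1822, 2007 and 1864 in myc2, a log2 fold change of -1.43 (± 0.0709 SE, adjusted p = 2.94e-08 by edgeR), so transcript was reduced but present. The alignment names in the file headers carry one identifier for Col-0 replicates 1 and 2, another for Col-0 replicate 3 and yet another for all 3 myc2 libraries. What the identifiers stand for is not stated. No identifier is shared by the genotypes, so whatever it marks and the genotype cannot be told apart. Col-0 replicate 3 stood apart from the other Col-0 libraries, with a chi-square per degree of freedom of 20.1 and 16.5 against them, compared with 4.62 between replicates 1 and 2 and 2.46 to 3.11 among the myc2 libraries. The members' changes are therefore also given against each of these Col-0 sets on its own. The leaf markers RBCS1A, RCA, CA1, GLDP1 and LHCB2.1 summed to 40129 to 49427 counts per 1e6 (CPM), and 7 root markers together had 6 to 19 reads per library, with RHD6 and IRT1 at 0 in all of them, as the label of shoot says.

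The members are named in the literature by subfamily and number, and below by the letter names that the RefSeq annotation also gives. The PIP1 members are PIP1;1 (PIP1A, AT3G61430), PIP1;2 (PIP1B, AT2G45960), PIP1;3 (PIP1C, AT1G01620), PIP1;4 (PIP1E, AT4G00430) and PIP1;5 (PIP1D, AT4G23400). The PIP2 members are PIP2;1 (PIP2A, AT3G53420), PIP2;2 (PIP2B, AT2G37170), PIP2;5 (PIP2D, AT3G54820), PIP2;6 (PIP2E, AT2G39010) and PIP2;7 (PIP3A, AT4G35100). Every member had 4 exons in its first listed transcript and 2 NPA motifs in the coding isoform examined. None overlapped another annotated gene. Proteins of the PIP1 members shared 91.3% to 97.6% of aligned residues with each other, those of the PIP2 members 76.3% to 94.0%, and members of different subfamilies 68.0% to 74.0%.

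Close copies can trade reads, so the coding sequence round the second NPA motif is shown to let the reader see how far they differ. Each window holds 57 bases of the TAIR10.1 genome, 5′ to 3′ on the coding strand, with the NPA codons at bases 25 to 33. Capitals mark bases unlike PIP1A in the first set and unlike PIP2A in the second.
PIP1A, chr3:22734837-22734893 (+ strand): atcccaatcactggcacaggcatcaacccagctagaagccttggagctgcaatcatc
PIP1B, chr2:18911433-18911489 (+ strand): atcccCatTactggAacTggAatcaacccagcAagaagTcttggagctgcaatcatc
PIP1C, chr1:226201-226257 (- strand): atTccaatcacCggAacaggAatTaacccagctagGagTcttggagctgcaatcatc
PIP1E, chr4:186363-186419 (- strand): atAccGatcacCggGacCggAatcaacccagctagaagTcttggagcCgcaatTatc
PIP1D, chr4:12221840-12221896 (+ strand): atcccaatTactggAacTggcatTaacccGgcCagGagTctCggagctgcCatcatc
PIP2A, chr3:19804146-19804202 (- strand): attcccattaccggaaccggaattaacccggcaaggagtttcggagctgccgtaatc
PIP2B, chr2:15613872-15613928 (- strand): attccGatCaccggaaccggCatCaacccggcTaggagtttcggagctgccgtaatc
PIP2C, chr2:15618642-15618698 (+ strand): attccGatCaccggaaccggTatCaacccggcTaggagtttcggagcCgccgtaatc
PIP2D, chr3:20303443-20303499 (+ strand): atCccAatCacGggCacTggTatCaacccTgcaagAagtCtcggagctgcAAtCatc
PIP2E, chr2:16293453-16293509 (+ strand): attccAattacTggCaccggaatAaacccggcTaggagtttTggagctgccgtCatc
PIP3A, chr4:16709659-16709715 (+ strand): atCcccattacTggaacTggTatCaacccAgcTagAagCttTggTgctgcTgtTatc
Between 7 and 10 bases of 57 set the other PIP1 members apart from PIP1A, and PIP1D differed most. In the second set PIP2B differed from PIP2A at 5 bases, PIP2C (PIP2;3, AT2G37180) at 6, PIP2E at 7, PIP3A at 13 and PIP2D at 14. PIP2C is no member but is shown because it lies beside PIP2B on chromosome 2 and resembles it most. The longest run of identical coding bases that a member shared with any other PIP gene was 23 to 49 bp, except that PIP2B and PIP2C shared 242 bp and 94.8% of their coding sequence. How the counting divided reads between those neighbours is not stated, so their separate values are uncertain and their sum is given too.

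Of the 10 members, 7 were lower in myc2, 1 was higher and 2 did not pass the test (edgeR quasi-likelihood F-test, Benjamini-Hochberg adjusted p under 0.05 over 18961 genes). Among all genes tested, 18.7% were called lower and 17.6% higher, 36.3% in all. The median log2 fold change of the members was -0.37, against 0.01 over all genes. The libraries of the 2 genotypes did not overlap for 9 members, 8 lower and 1 higher in myc2. The background without overlap was 24.3% of genes lower and 25.4% higher, 49.7% in all. PIP1E is among the 8, but its separation was narrow and was lost on plain library totals. All 5 PIP2 members fell. Among the PIP1 members PIP1A and PIP1B fell, PIP1D rose, and PIP1C and PIP1E did not pass.

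**Figure D1:**
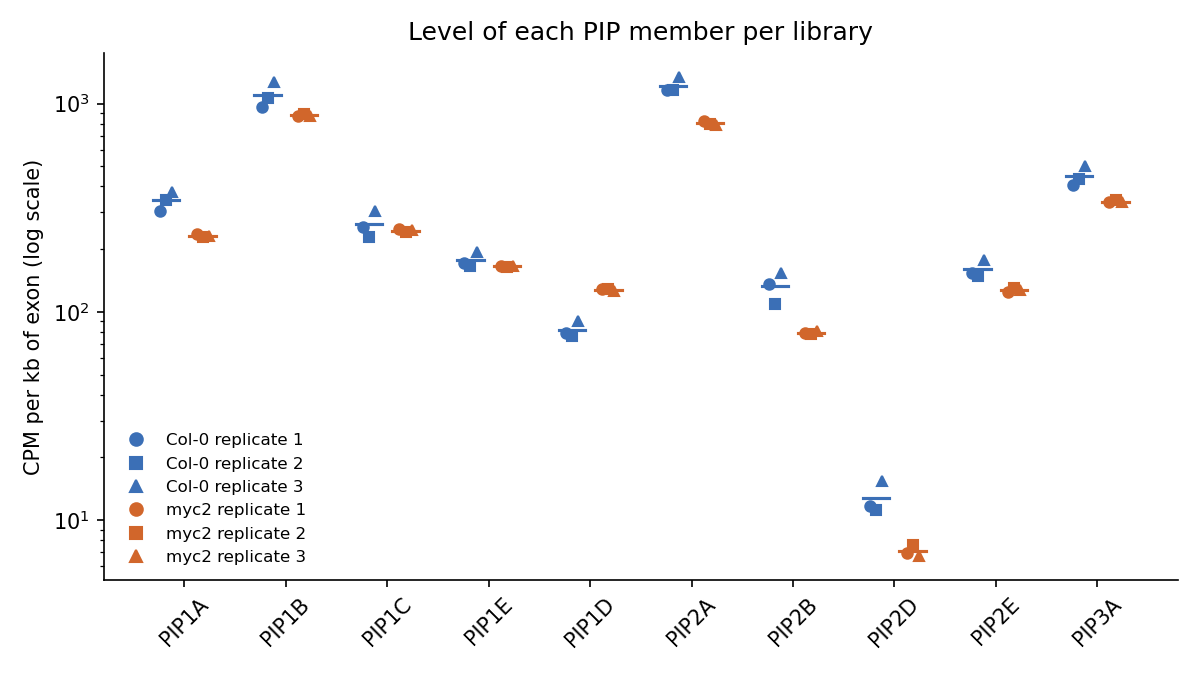
Level of each PIP member in CPM per kb of exon (vertical log axis) in every library, with circles, squares and triangles for replicates 1, 2 and 3, blue for Col-0 and orange for myc2, and bars at the genotype means. PIP2A and PIP1B lie highest and PIP2D lowest, Col-0 replicate 3 is the highest Col-0 library for all 10 members, and PIP1D is the one member whose myc2 libraries all lie above Col-0.

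The levels spanned about 2 orders of magnitude. Per kb of exon, which allows genes of different length to be compared, PIP2A had the highest Col-0 mean at 1218 ± 107 CPM per kb (SD, n = 3), place 54 of 18867 genes ranked, and PIP1B followed at 1095 ± 155, place 63. PIP3A came next at 447 ± 49.0 and PIP1A at 342 ± 37.4. Below them lay PIP1C at 263 ± 37.6, PIP1E at 178 ± 14.9, PIP2E at 160 ± 15.3, PIP2B at 132 ± 22.3 and PIP1D at 81.9 ± 7.38. PIP2D stood far below the rest at 12.7 ± 2.29 CPM per kb, place 7232. The Col-0 ranges of neighbours in this order overlapped for PIP2A and PIP1B, PIP1A and PIP1C, PIP1E and PIP2E, and PIP2E and PIP2B. Within each Col-0 library, however, the upper gene of each of these pairs was the higher. PIP2A, for example, had 1157, 1155 and 1341 CPM per kb in replicates 1 to 3 and PIP1B 962, 1057 and 1265.

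In myc2 the order differed at the top. PIP1B led with 879 ± 9.82 CPM per kb (SD, n = 3) and PIP2A followed with 802 ± 19.2, with no overlap of their libraries. PIP1C, at 245 ± 3.79, stood above PIP1A, at 232 ± 3.72. PIP1D reached 128 ± 1.77, place 742 against 1332 in Col-0, beside PIP2E at 127.1 ± 2.42, the 1 pair of neighbours whose myc2 libraries overlapped. PIP2D was again last at 7.09 ± 0.460, place 10229.

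PIP2A and PIP2B are close relatives among the PIP2 water channels, and PIP2A is known in leaves for the water permeability of vein cells and as a target of phosphorylation. PIP2A, at chr3:19803473-19805730 on the minus strand of TAIR10.1, had 1819, 1817 and 2110 CPM in Col-0 replicates 1 to 3 and 1297, 1249 and 1241 in myc2. Every myc2 library lay below every Col-0 library. The mean went from 1915 ± 169 to 1262 ± 30.2 CPM (SD, n = 3 each), a log2 fold change of -0.60 (± 0.0672 SE, adjusted p = 3.03e-05 by edgeR). PIP2B, at chr2:15613368-15615022 on the minus strand, had 182, 146 and 206 CPM in Col-0 and 106, 105 and 109 in myc2. The Col-0 values were spread widely, yet the lowest was well above the highest of myc2. Its log2 fold change was -0.74 (± 0.104 SE, adjusted p = 0.000302 by edgeR).

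PIP2C, better known as RD28 for its response to desiccation, fell further than any member. It had 184, 184 and 228 CPM in Col-0 and 56.5, 55.6 and 56.3 in myc2, a mean of 199 ± 25.3 against 56.2 ± 0.471 (SD, n = 3 each). The level was 3.54-fold lower in myc2 (log2 fold change -1.82, edgeR adjusted p = 1.84e-08). Since PIP2B and PIP2C share a long identical stretch, their summed level is the safer value: 366, 331 and 434 CPM in Col-0 against 163, 161 and 166 in myc2. The sum in myc2 was 43.3% of that in Col-0 and the libraries did not overlap.

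PIP2D, PIP2E and PIP3A are more distant from PIP2A, with 78.2% to 78.9% of residues shared with their closest member. PIP3A has a nearer relative outside the members, PIP3B (PIP2;8, AT2G16850), with 92.4% of residues shared. PIP2D, at chr3:20301759-20304309 on the plus strand, had 11.7, 11.2 and 15.4 CPM per kb in Col-0 and 6.94, 7.61 and 6.73 in myc2. The genotypes did not overlap, and the log2 fold change of -0.85 (± 0.123 SE, adjusted p = 0.000244 by edgeR) was the furthest from 0 among the 10 members, at the lowest level. PIP2E, at chr2:16291280-16294101 on the plus strand and one of the PIPs linked to rosette water transport, had 329, 321 and 381 CPM in Col-0 and 268, 278 and 273 in myc2. That difference was smaller, a log2 fold change of -0.33 (± 0.0698 SE, adjusted p = 0.00299 by edgeR), again without overlap. PIP3A, at chr4:16708361-16710407 on the plus strand, whose delivery to the plasma membrane is known to involve the syntaxins SYP61 and SYP121, had 653, 693 and 805 CPM in Col-0 and 537, 550 and 537 in myc2. All its myc2 libraries were below the lowest Col-0 library, and the log2 fold change was -0.41 (± 0.0738 SE, adjusted p = 0.00119 by edgeR).

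PIP1A and PIP1B have proteins that share 97.2% of residues. PIP1B, a PIP1 of leaves and roots linked to both water and carbon dioxide transport, lies at chr2:18910081-18911982 on the plus strand. It had 1537, 1689 and 2021 CPM in Col-0 and 1396, 1422 and 1393 in myc2. The genotypes did not overlap, but Col-0 replicates 1 and 3 were further apart than Col-0 replicate 1 and any myc2 library. The log2 fold change was -0.32 (± 0.0855 SE, adjusted p = 0.0131 by edgeR). This call was lost without myc2 replicate 1 (edgeR adjusted p = 0.0570) and without myc2 replicate 3 (0.0577), and the change was -0.20 without Col-0 replicate 3. PIP1A, at chr3:22733243-22735394 on the plus strand, had 472, 538 and 588 CPM in Col-0 and 367, 355 and 361 in myc2. Here the gap between genotypes was wide, from 533 ± 58.1 to 361 ± 5.79 CPM (SD, n = 3 each), with a log2 fold change of -0.56 (± 0.0748 SE, adjusted p = 0.000126 by edgeR).

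PIP1D was the member that rose. It lies at chr4:12220641-12222468 on the plus strand and had 105, 102 and 120 CPM in Col-0 and 170, 172 and 167 in myc2. The highest Col-0 library was well below the lowest of myc2. The mean went from 109 ± 9.80 to 170 ± 2.36 CPM (SD, n = 3 each), 1.56-fold higher in myc2 (log2 fold change 0.64 ± 0.0698, SE, edgeR adjusted p = 2.49e-05). PIP1C, the nearest member to PIP1D in protein sequence, and PIP1E, which shares 97.6% of residues with PIP1C, did not pass the test. PIP1C, at chr1:225665-227543 on the minus strand, had 394, 356 and 470 CPM in Col-0 and 385, 374 and 381 in myc2. The genotypes overlapped, and the 95% interval of its log2 fold change ran from -0.29 to 0.09 (edgeR adjusted p = 0.402). PIP1E, at chr4:185285-187680 on the minus strand, had 343, 333 and 389 CPM in Col-0 and 331, 329 and 332 in myc2. Its libraries did not overlap, by a margin of under 1%, and the interval ran from -0.25 to 0.04 (edgeR adjusted p = 0.242). Scaled to plain library totals its genotypes did overlap.

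**Figure D2:**
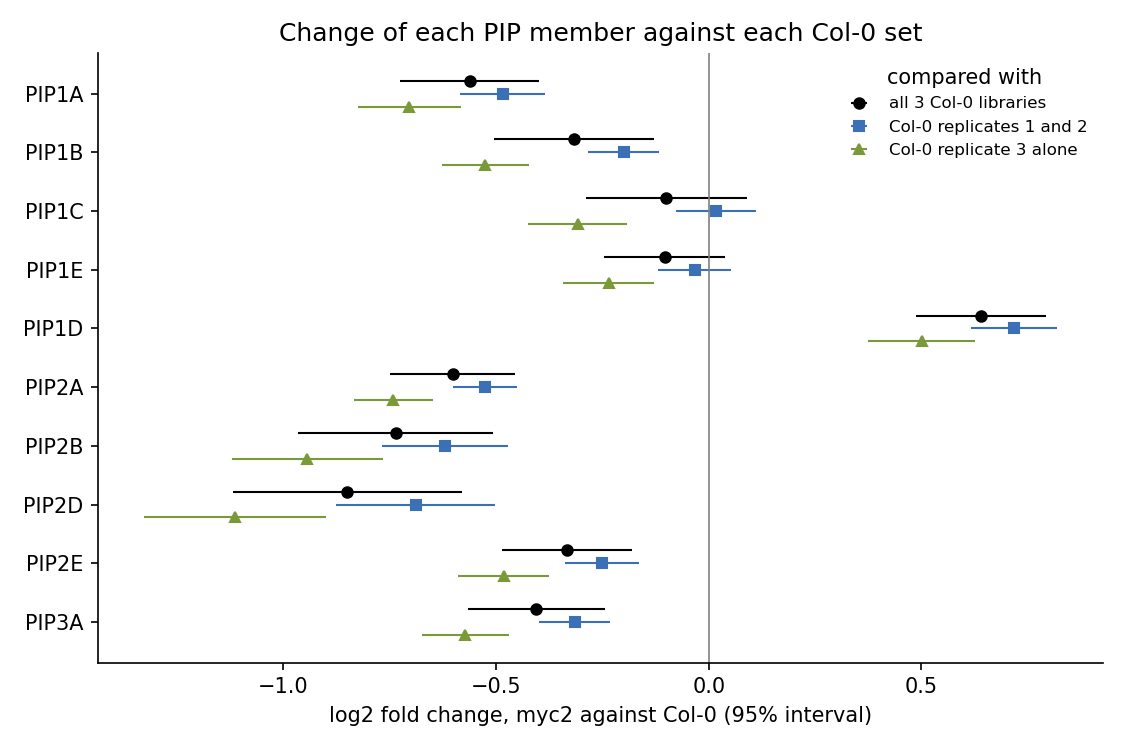
Log2 fold change of each PIP member in myc2 (horizontal axis, bars are 95% intervals) against all 3 Col-0 libraries (black), Col-0 replicates 1 and 2 (blue) and Col-0 replicate 3 alone (green). PIP1D lies above 0 and PIP1A, PIP1B and the 5 PIP2 members below 0 against each Col-0 set, while PIP1C runs from 0.02 to -0.31 and PIP1E from -0.03 to -0.24.

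The choice of Col-0 libraries mattered to the size of each change. All 10 members were higher in Col-0 replicate 3 than in Col-0 replicates 1 and 2, by 0.20 to 0.43 on the log2 scale, and all 10 passed the test between these Col-0 libraries (edgeR adjusted p from 0.000164 to 0.0245, with the lone library assumed to vary like the rest). Over all genes 15.6% were called in that comparison and 6.3% were called higher in replicate 3. Differences of this size thus also occur inside the wild type, and they are of the order of the smaller differences between genotypes. Against Col-0 replicates 1 and 2 the same call was made for each member as against all Col-0 libraries, 7 lower and 1 higher. Against Col-0 replicate 3 alone 9 members were called lower, since PIP1C (-0.31, edgeR adjusted p = 0.000100) and PIP1E (-0.24, edgeR adjusted p = 0.000661) then passed. The change of PIP1D was 0.72 against replicates 1 and 2 and 0.50 against replicate 3, and that of PIP2D -0.69 and -1.11. PIP1B moved from -0.20 to -0.53.

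Summed over the 10 members, the level was 3636, 3733 and 4421 CPM per kb in Col-0 replicates 1 to 3 and 3023, 3006 and 2981 in myc2. The myc2 sum was 76.4% of the Col-0 sum, and the libraries did not overlap. The reads of the 10 genes made up 0.572%, 0.590% and 0.676% of all counts in Col-0 and 0.504%, 0.498% and 0.496% in myc2. The PIP2 members together went from 1970 ± 190 to 1354 ± 15.8 CPM per kb (SD, n = 3 each), 68.7% of Col-0. The PIP1 members together went from 1960 ± 242 to 1649 ± 6.36, 84.2% of Col-0, a log2 ratio of -0.25 that was -0.14 without Col-0 replicate 3. These sums are descriptions and were not tested, and in whole shoots a fall in cells that express a gene cannot be told apart from less RNA per cell.

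The make-up of the family differed with them. PIP1 members held 48.7%, 50.3% and 50.5% of the summed level per kb in Col-0 and 54.7%, 55.0% and 55.1% in myc2. PIP2A, the largest contributor in Col-0, held 31.03% ± 0.741 there and 26.7% ± 0.482 in myc2 (SD, n = 3 each). PIP1B held 27.8% ± 1.16 and 29.3% ± 0.344, and was the largest contributor in myc2. The share of PIP1D went from 2.09% ± 0.0692 to 4.25% ± 0.0425. In all, 4 members had a higher share in every myc2 library (PIP1B, PIP1C, PIP1E and PIP1D), 4 a lower one (PIP1A, PIP2A, PIP2B and PIP2D), and PIP2E and PIP3A overlapped. Shares sum to a fixed total, so one member's gain is partly another's loss. The counts of higher and lower shares were not set against other genes.

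To ask whether close copies changed unequally, each member was compared with the member nearest to it in protein sequence, as a ratio of reads within a library, which needs no scaling between libraries. The 7 pairs were tested by exact two-sided permutation of the libraries, where 3 against 3 cannot go below p = 0.1, so no pair could pass. PIP1C had 3.77, 3.50 and 3.92 times the reads of PIP1D in Col-0 and 2.26, 2.17 and 2.28 times in myc2, a log2 change of -0.73 (exact p = 0.1, adjusted 0.175). These values were far apart compared with their spread. By contrast PIP1C had 1.15, 1.07 and 1.21 times the reads of PIP1E in Col-0 and 1.16, 1.13 and 1.15 times in myc2, with overlap (log2 change 0.01, exact p = 0.9). The ratio also shifted without overlap from PIP1A to PIP1B (-0.25), from PIP2D to PIP2E (-0.50) and from PIP2A to PIP3A (-0.20), each at exact p = 0.1. How often other gene pairs shift without overlap was not counted, while 49.7% of single genes did not overlap. Overlap was seen from PIP2A to PIP2B (0.12, exact p = 0.4) and from PIP2B to PIP2D (0.11, exact p = 0.3). Both of these ratios use the separate count of PIP2B, which is uncertain. The sum of PIP2B and PIP2C in myc2 was 43.3% of Col-0, and PIP2A was at 65.9%.

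**Figure D3:**
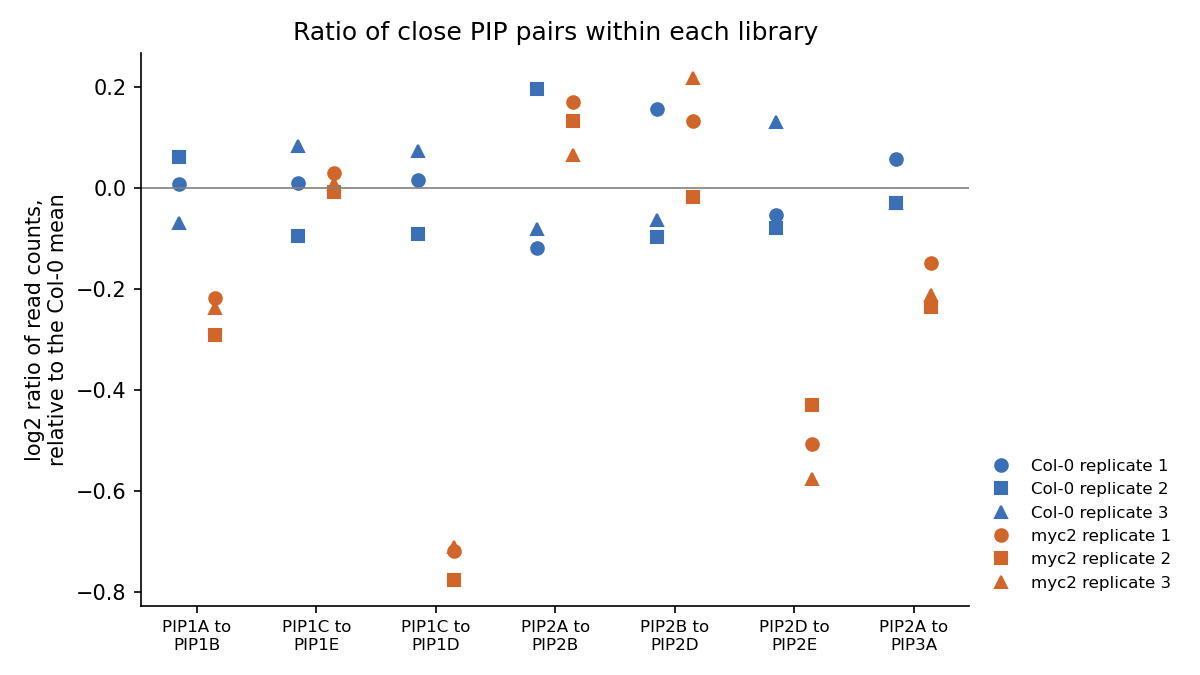
Log2 ratio of reads between each member and its nearest member in protein sequence, per library, relative to the Col-0 mean of that pair (vertical axis), with blue for Col-0, orange for myc2, and circles, squares and triangles for replicates 1, 2 and 3. The myc2 points lie clear of Col-0 for 4 of the 7 pairs, furthest for PIP1C to PIP1D, and overlap Col-0 for PIP1C to PIP1E, PIP2A to PIP2B and PIP2B to PIP2D.

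MYC2 is known to bind the hexamer CACGTG (the G-box) and close variants of it. The window from 250 bases before to 50 bases after each annotated gene start was searched on both strands for CACGTG, for the variant CACATG and for CCGAC, the core of the element bound by dehydration- and cold-response factors. CACGTG was in none of the 10 members' windows, against 7.68% of 27443 windows over all genes. CACATG was in 2 (PIP1B and PIP2D, background 12.91%) and CCGAC in 2 (PIP1C and PIP2D, background 15.05%). The windows of PIP1D, the member that rose, and of PIP1B and PIP2D, those with CACATG, are shown from TAIR10.1 with the motifs in capitals, where CATGTG and GTCGG are the reverse complements.
PIP1D, chr4:12220391-12220690 (+ strand): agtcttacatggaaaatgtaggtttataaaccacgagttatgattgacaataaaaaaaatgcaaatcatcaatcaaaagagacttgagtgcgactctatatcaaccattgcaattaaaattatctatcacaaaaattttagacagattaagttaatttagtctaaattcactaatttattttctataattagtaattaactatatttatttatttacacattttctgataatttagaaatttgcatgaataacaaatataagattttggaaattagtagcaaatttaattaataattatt
PIP1B, chr2:18909831-18910130 (+ strand): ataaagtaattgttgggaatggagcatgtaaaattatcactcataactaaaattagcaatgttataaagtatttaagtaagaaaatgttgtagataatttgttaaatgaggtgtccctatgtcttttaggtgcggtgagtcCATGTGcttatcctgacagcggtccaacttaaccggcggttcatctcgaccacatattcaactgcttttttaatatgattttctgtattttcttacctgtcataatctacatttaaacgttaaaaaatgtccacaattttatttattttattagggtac
PIP2D, chr3:20301509-20301808 (+ strand): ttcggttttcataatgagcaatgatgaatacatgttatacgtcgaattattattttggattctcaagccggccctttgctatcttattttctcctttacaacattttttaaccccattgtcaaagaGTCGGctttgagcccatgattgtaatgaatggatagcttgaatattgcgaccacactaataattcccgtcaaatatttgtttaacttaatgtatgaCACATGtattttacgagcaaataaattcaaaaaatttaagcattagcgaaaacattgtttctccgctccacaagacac
The CACATG match begins 109 bases before the start of PIP1B and 28 before that of PIP2D, and the CCGAC match of PIP2D begins 124 bases before the start. PIP1D holds no match, and nor do PIP1A, PIP1E, PIP2A, PIP2B, PIP2E and PIP3A in this window. A match is a description of sequence, and no binding was measured here.

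Outside the 10 members, the other PIP genes also fell, where 18.7% of all genes tested were called lower. All 3 passed the test in that direction: PIP2C (above), PIP2F (PIP2;4, AT5G60660), at 5.59 ± 1.81 CPM in Col-0 and 2.52 ± 0.742 in myc2 (SD, n = 3 each, log2 fold change -1.17, edgeR adjusted p = 0.00644), and PIP3B (PIP2;8, AT2G16850), at 25.0 ± 1.93 and 17.6 ± 0.935 (-0.51, edgeR adjusted p = 0.000909). Of the TIPs, 5 of 10 were tested, of which 3 fell and none rose, beside 18.7% lower and 17.6% higher over all genes. TIP2;2 had 129, 148 and 220 CPM in Col-0 and 75.0, 79.7 and 72.5 in myc2 (log2 fold change -1.13, edgeR adjusted p = 0.00438). TIP1;1, a main channel of the vacuole membrane, had 464, 447 and 628 CPM in Col-0 and 363, 380 and 359 in myc2 (-0.48, edgeR adjusted p = 0.00987, and -0.31 without Col-0 replicate 3). TIP1;2, its close relative, had 615, 578 and 857 CPM against 507, 516 and 518 (-0.41, edgeR adjusted p = 0.0427). That call was lost without any 1 of the myc2 libraries (0.0911 to 0.1) and without a filter beyond 1 read (0.0963). The change of TIP1;2 was -0.22 without Col-0 replicate 3. Col-0 replicate 3 was the highest library for all 3 TIPs that fell. TIP2;1, at 580, 591 and 760 CPM in Col-0 and 686, 705 and 681 in myc2, did not pass (0.10, edgeR adjusted p = 0.422), but was called higher without Col-0 replicate 3 (0.24, edgeR adjusted p = 2.81e-05) and lower against that library alone (-0.14, edgeR adjusted p = 0.0256).

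Of the NIPs, which include boric acid channels, 5 of 9 were tested, of which 2 fell and none rose. The shares over all genes were 18.7% lower and 17.6% higher. NIP1;2 went from 14.4 ± 1.52 to 9.43 ± 0.436 CPM (SD, n = 3 each, log2 fold change -0.62, edgeR adjusted p = 0.000913), and NIP7;1, known from anthers, had few reads, at 1.17 ± 0.224 and 0.416 ± 0.253 (-1.49, edgeR adjusted p = 0.00878). NIP6;1, which distributes boron in young shoot tissue and was the most abundant NIP, had 67.5 ± 9.16 CPM in Col-0 and 77.3 ± 1.32 in myc2 and did not pass (0.19, edgeR adjusted p = 0.107), but was called higher without Col-0 replicate 3 (0.31, edgeR adjusted p = 6.57e-05). None of the 3 SIPs passed: SIP1;2 had a log2 fold change of 0.56 (edgeR adjusted p = 0.0744), SIP2;1 of 0.07 and SIP1;1, the most abundant, of 0.03. SIP1;2 was called higher without Col-0 replicate 1 (0.88, edgeR adjusted p = 0.00638) and against Col-0 replicate 3 alone (1.04, edgeR adjusted p = 0.00419).

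**Figure D4:**
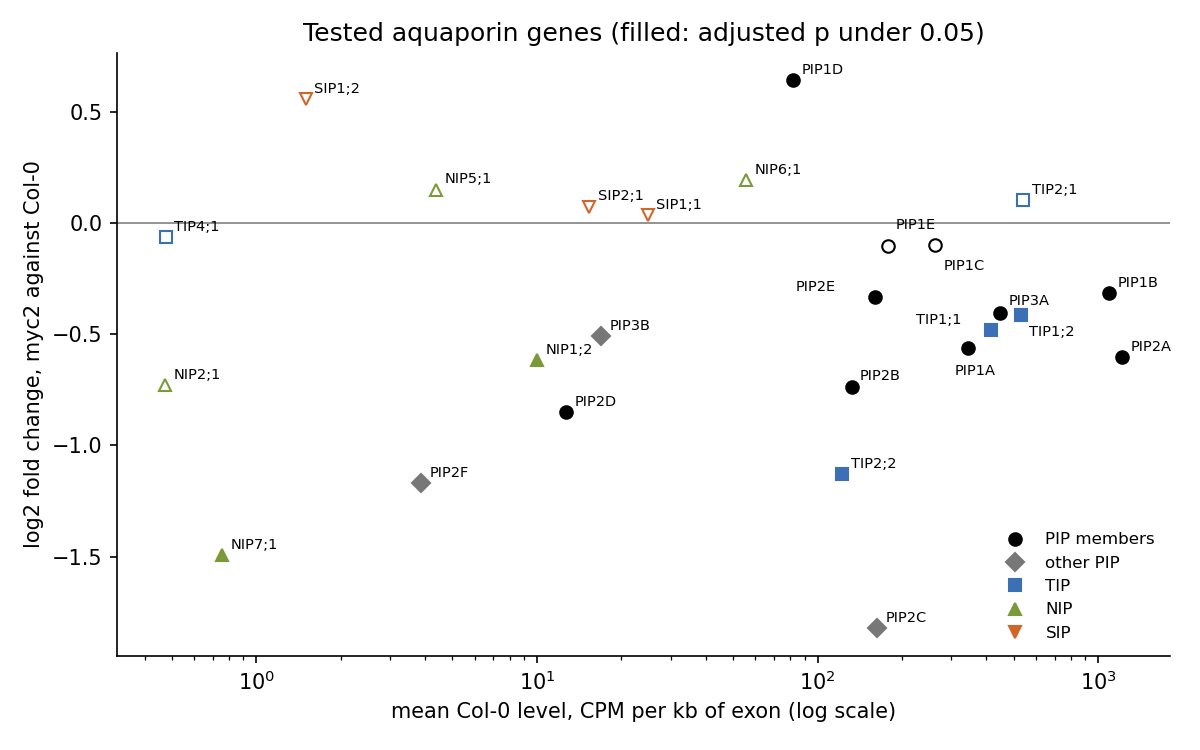
Log2 fold change in myc2 (vertical axis) against the mean Col-0 level in CPM per kb of exon (horizontal log axis) for every aquaporin gene tested, with filled symbols for adjusted p under 0.05. PIP1D is the 1 filled symbol above 0, and PIP2C at -1.82 lies lowest.

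Proteins known to act on PIPs include syntaxins that deliver them, RING-type ubiquitin ligases of the endoplasmic reticulum that remove them, and kinases and a carbonic anhydrase that bind them. Of 12 such genes 11 were tested, 1 rose (9.09%), 3 fell (27.3%) and 7 did not pass. Over all genes tested 17.6% were called higher and 18.7% lower, 36.3% in all. SYP121, a plasma membrane syntaxin, had 39.1, 36.2 and 37.4 CPM in Col-0 and 23.3, 26.8 and 23.7 in myc2, a fall without overlap (log2 fold change -0.61, edgeR adjusted p = 0.000118). RMA2, a relative of RMA1, a ligase that marks PIP2A for removal, had 18.1, 18.7 and 18.9 CPM in Col-0 and 28.0, 27.9 and 25.3 in myc2, a rise without overlap (0.54, edgeR adjusted p = 0.000296). The calls of QSK1, a receptor kinase (-0.22, edgeR adjusted p = 0.0403), and of the ligase RMA3 (-0.44, 0.0407) were lost in DESeq2 (0.0601 and 0.144), with the replicate block (0.0689 and 0.0574), without Col-0 replicate 1 and without any 1 myc2 library. That of RMA3 was also lost without Col-0 replicate 2, without a filter beyond 1 read and against Col-0 replicate 3 alone. Of those that did not pass, SIRK1, the receptor kinase that QSK1 partners, was called higher without Col-0 replicate 3 (0.38, edgeR adjusted p = 0.00112), and SYP61 against that library alone (0.76, edgeR adjusted p = 1.93e-06). CA4, the carbonic anhydrase and the most abundant of the list, had 420 ± 28.0 CPM in Col-0 and 412 ± 4.94 in myc2 (SD, n = 3 each, edgeR adjusted p = 0.739). TSPO, which carries PIP3A to degradation, had 41 reads in all and was not tested.

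Some genes that mark other cell types of the shoot also differed, beside a background of 18.7% of all genes called lower and 17.6% higher. Of 4 vascular markers 3 fell, namely SUC2 of phloem companion cells (log2 fold change -0.54) and XCP1 (-1.19) and IRX3 (-1.11) of xylem, and SULTR2;2 did not pass. Their summed level was 268 to 308 CPM in Col-0 and 183 to 193 in myc2. Of 3 epidermis markers ATML1 (0.56) and CER5 (0.21) rose and PDF1 did not pass, with sums of 395 to 487 CPM and 503 to 519. Of 4 guard cell markers MYB60 (0.52) and HT1 (0.59) rose and KAT1 and FAMA did not pass, with sums of 61.6 to 68.7 CPM and 66.8 to 71.4. Of 5 leaf markers RBCS1A (-0.24, or -0.14 without Col-0 replicate 3) and CA1 (-0.20) fell and 3 did not pass, with sums of 43000 to 49427 CPM and 40129 to 41066. Leaving out 1 library ended the call of RBCS1A (Col-0 replicate 2 or any myc2 library, adjusted p up to 0.120), CA1 (any myc2 library, up to 0.116), MYB60 (Col-0 replicate 2 or myc2 replicate 1 or 2, up to 0.0581) and CER5 (Col-0 replicate 2 or myc2 replicate 1, up to 0.0820). Other markers gained a call. Without Col-0 replicate 3 PDF1 was higher (0.30, edgeR adjusted p = 4.54e-05) and RCA (-0.10, 0.00931) and LHCB2.1 (-0.10, 0.0300) were lower, the last also without Col-0 replicate 2 (0.0420). Against Col-0 replicate 3 alone PDF1 (-0.34), RCA (-0.18), LHCB2.1 (-0.24), GLDP1 (-0.20) and FAMA (-0.24) were lower, and RCA passed in limma-voom (0.0416). The part of these markers in the PIP results was not tested.

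Over the 6 libraries, the 5 tested genes whose log2 CPM followed the log2 summed CPM of the members most closely were AT1G56190 (Pearson r = 0.9996), the aspartate aminotransferase gene ASP3 (0.9995), AT4G32020 (0.9987), the small GTPase gene RAB6A (0.9985) and the ubiquitin-conjugating enzyme gene UBC22 (0.9977). With 6 points that share 2 genotypes and 3 header identifiers, and 18961 genes to choose from, such values are a description only. AT1G56190 had 297 CPM in Col-0 and 250 in myc2 (log2 fold change -0.25, edgeR adjusted p = 0.00852), and AT4G32020 332 and 251 (-0.40, edgeR adjusted p = 0.00189). Both fell, as did ASP3 (-0.37, edgeR adjusted p = 0.00323) and UBC22 (-0.25, edgeR adjusted p = 0.0130). RAB6A did not pass (-0.16, edgeR adjusted p = 0.0634).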

How the data were processed

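Libraries of poly(A) RNA (TruSeq RNA kit) were grouped by the genotype their labels give. The authors deposited whole-number read counts per gene, 1 file per library and not normalized, and per the labels' processing notes worked on genome build TAIR10 with HISAT2, fastp, StringTie and SAMtools. Their versions, the program that counted reads, its strand setting and the gene annotation are not stated, so how reads of close copies were assigned is not known. A deposited table of the authors' own comparison (fold changes and p-values) was not used.

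Genes passing filterByExpr were scaled by TMM (trimmed mean of M-values) and compared by the edgeR 4.0.16 quasi-likelihood F-test (R 4.3.3), with no term besides genotype and Benjamini-Hochberg adjustment over 18961 genes. CPM are counts per 1e6 of the TMM-scaled total, and 1 read was worth 0.0327 to 0.0472 CPM before scaling. A second fit held 3 groups (Col-0 replicates 1 and 2, Col-0 replicate 3, myc2). Ratios of member pairs had a pseudocount of 0.5 reads. Positions, exon length, identities and promoter windows came from the RefSeq TAIR10.1 annotation and genome, joined by gene identifier (28001 genes matched), since the count files hold no coordinates. The edgeR fit was tried on simulated counts, in which no library was shifted as Col-0 replicate 3 was.

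The members and the lists were chosen with earlier results of these data known, so counts of members carry no test of their own. All 10 members were named, with the 3 genes of smallest adjusted p and the most abundant gene of each list, and the 5 genes most like the summed level. RMA3, TSPO, TIP2;1, SIRK1, SYP61 and the printed sequences were picked with their values in view. The comparison was repeated with upper-quartile or RLE scaling, with limma-voom (limma 3.58.1) and DESeq2 1.42.0, without a filter beyond 1 read, at 5 CPM or more in 3 libraries, with a replicate block, with each library left out, with the 20 most abundant genes left out, and against each Col-0 set.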

Additional observations from a re-analysis of the deposited data

How the results depend on the processing

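Under RLE and upper-quartile scaling, DESeq2, limma-voom, both filters and without the 20 most abundant genes, each of the 10 members had the same call and direction. No pairing of libraries by replicate number was detected, with deviations of same-numbered libraries correlated at -0.025, -0.002 and 0.023 across genes. Whether they were paired in the experiment is not stated. With the replicate number as a block 7 members were lower and 1 higher, with 3397 genes lower and 3242 higher, against 3550 and 3339 without it, and no member's call changed, while QSK1 (adjusted p = 0.0689) and RMA3 (0.0574) lost theirs. Leaving out 1 library in turn gave 6 to 7 members lower, 1 higher, and 2662 to 4335 genes lower and 2351 to 4082 higher. The log2 fold change then ran from -0.40 to -0.20 for PIP1B, from -0.19 to 0.02 for PIP1C, from -0.16 to -0.03 for PIP1E and from 0.59 to 0.72 for PIP1D. The other 6 members stayed lower and called under each omission. PIP1B lost its call without myc2 replicate 1 (-0.31) and without myc2 replicate 3 (-0.31). PIP1C turned direction without Col-0 replicate 3 (0.0177) and against Col-0 replicates 1 and 2 in the fit with 3 groups (0.0176), an alternative chosen after seeing the data. Against Col-0 replicate 3 alone PIP1C (-0.31) and PIP1E (-0.24) passed the threshold. Why Col-0 replicate 3 differs was not tested, and its header identifier is shared with no other library. Scaled to the plain library total the summed level of the members in myc2 was 81.4% of Col-0, in place of 76.4%. PIP2D had the fewest reads of the members, 316 to 799 per library.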
